A study of Mus musculus with 16 samples.

Results

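The comparison described here is that of hearts lacking both MuRF1 and MuRF2 (double null) with wild type hearts. Its members are the 4 arrays labelled MuRF1 -/- // MuRF2 -/- and the 4 labelled MuRF1 +/+ // MuRF2 +/+, 8 of the 16 arrays of the series, and were chosen by these labels alone. The other 8 arrays hold 4 hearts of MuRF1 -/- // MuRF2 +/- mice (MuRF1 null MuRF2 het) and 4 of MuRF1 +/- // MuRF2 -/- mice (MuRF1 het MuRF2 null). All mice were 12 weeks old and, per the labels, matched for strain. The strain of the hearts, their sex and the part of each gene that was deleted are not given in the sources used here. The labels name no Cre or transgene that would limit the loss to 1 tissue, and 1 heart was used per array. Each array set heart RNA in the Cy5 channel against 1 common Cy3 reference, made of RNA of entire C57BL/6 pups taken on postnatal day 1 and pooled, with no dye swap. Each value below is a log2 ratio of heart over reference. A difference between the groups is double null minus wild type, so that a log2 difference of 1 means 2-fold higher, and its error is a standard error from limma with n = 4 arrays in each group.

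MuRF1, MuRF2 and MuRF3, encoded by Trim63, Trim55 and Trim54, are muscle-specific RING finger proteins that bind the sarcomere at titin and at microtubules. MuRF1 and MuRF2 act as ubiquitin ligases that mark muscle proteins for the proteasome, and MuRF1 is best known for its rise in wasting muscle. In heart muscle they have been linked to the turnover of contractile proteins and enzymes of energy metabolism. A strained adult heart commonly returns to a fetal pattern of expression, with natriuretic peptides, beta myosin heavy chain and skeletal actin high, and the title of the series names developmental heart growth and E2F1, a transcription factor of the cell cycle.

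The start regions of 5 genes that the results turn on are printed here. They are Trim63, which carries the MuRF1 null allele, the genes of skeletal alpha actin (Acta1), the LIM protein FHL1 (Fhl1) and brain natriuretic peptide (Nppb), which rose, and that of the fast myosin Myh4, which fell by its brightest probe. Each is the 250 bases before the RefSeq start in build GRCm38.p6, read on the strand of the gene. The positions are chr4:134314870-134315119 on the plus strand for Trim63, chr8:123894776-123895025 on the minus strand for Acta1, chrX:56779433-56779682 on the plus strand for Fhl1, chr4:147985650-147985899 on the plus strand for Nppb and chr11:67237562-67237811 on the plus strand for Myh4. Capitals mark CArG boxes (the site of serum response factor), the MCAT element CATTCC (the site of TEAD factors) and the TATA box TATAAA, each on either strand, and none of the marked matches overlap.
Trim63: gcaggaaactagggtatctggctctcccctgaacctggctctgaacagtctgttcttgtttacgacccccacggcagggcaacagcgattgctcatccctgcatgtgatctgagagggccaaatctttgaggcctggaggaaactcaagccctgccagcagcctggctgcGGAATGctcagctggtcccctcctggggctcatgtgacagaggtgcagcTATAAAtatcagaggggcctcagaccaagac
Acta1: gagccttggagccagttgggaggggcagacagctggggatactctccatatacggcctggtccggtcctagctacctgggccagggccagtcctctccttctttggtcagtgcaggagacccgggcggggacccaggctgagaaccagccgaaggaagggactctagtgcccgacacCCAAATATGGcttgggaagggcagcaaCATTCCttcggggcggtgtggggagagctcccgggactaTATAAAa
Fhl1: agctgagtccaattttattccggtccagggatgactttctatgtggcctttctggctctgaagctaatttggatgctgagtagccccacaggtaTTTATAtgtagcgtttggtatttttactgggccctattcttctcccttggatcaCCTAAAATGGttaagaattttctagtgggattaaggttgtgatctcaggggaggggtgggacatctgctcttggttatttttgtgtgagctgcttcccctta
Nppb: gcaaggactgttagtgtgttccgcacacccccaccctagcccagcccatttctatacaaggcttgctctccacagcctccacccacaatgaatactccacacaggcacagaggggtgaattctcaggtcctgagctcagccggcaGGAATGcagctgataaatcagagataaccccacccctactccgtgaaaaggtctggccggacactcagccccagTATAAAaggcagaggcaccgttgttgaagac
Myh4: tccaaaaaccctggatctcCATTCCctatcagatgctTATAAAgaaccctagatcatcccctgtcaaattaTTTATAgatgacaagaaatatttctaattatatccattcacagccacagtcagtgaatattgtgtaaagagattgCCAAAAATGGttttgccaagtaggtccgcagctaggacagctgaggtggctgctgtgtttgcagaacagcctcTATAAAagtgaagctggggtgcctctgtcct

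A RefSeq start was found for 24 of the 30 genes taken by the first 2 parts of the naming rule, that is the genes always taken and the largest changes. A CArG box lay in the window of 3 of the 24 (Acta1, Fhl1 and Myh4), against 1.47% of all 32851 windows of that length. MCAT lay in 11 of the 24, against 12.6% of all windows, and was found both in genes that rose (Myh7, Acta1, Thbs4 and Nppb) and in genes that fell (Myh4, Cish, Pla2g5, Emilin2 and Myh6). The TATA box lay in 9 of the 24, against 12.4%. The E2F motifs TTTCCCGC and TTTGGCGC, held by 0.895% and 0.417% of all windows, were found in none of the 24. A gene was counted if any of its start windows held the motif, whereas the shares are of single windows, so the units are not alike. A match is a stretch of letters and not a measured binding site.

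The arrays of the groups differed in brightness. Cy5 signal was well above background for 6037, 11725, 12126 and 14503 probes on the double null arrays and for 15171 to 16664 on the wild type arrays, so that all double null arrays were dimmer and double null 2 was the dimmest. The Cy3 reference was alike, with 22080 to 24078 probes. The spread between arrays was wider among double null hearts, with a median SD over genes of 0.20 against 0.11. The 2 groups were balanced over slides: double null 1 and 2 and wild type 1 and 2 lay on slide 1, and the others on slide 3. The Y-linked genes Ddx3y and Eif2s3y were well above background on all arrays but double null 2 and wild type 2, the same number in each group. The tissue label was borne out by Myh6, the alpha myosin heavy chain of adult mouse heart, at 3.97 (SD 0.15) in wild type hearts.

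Trim63 was lower in double null hearts. Its brightest probe read -0.78, -0.39, -1.04 and -0.68 in double null and 2.51, 2.65, 2.71 and 2.67 in wild type hearts, with all double null arrays far below all wild type arrays. The difference was -3.36 ± 0.14 (adjusted p 8.11e-10). In double null hearts the probe was well above background on 2 of 4 arrays, which limits the precision of the size, and it was -5.39 with the ratios of the scanner software. Trim55 read -1.66, -0.52, -1.59 and -1.65 in double null and -1.57, -1.90, -1.62 and -1.81 in wild type hearts. Its groups overlapped, with a difference of 0.37 ± 0.25 that did not pass (adjusted p 0.276). A second, dimmer Trim63 probe was well above background on 3 wild type arrays and 0 double null arrays and differed by -0.34. The mean of the Trim63 probes differed by -1.85. Where the single Trim55 probe lies relative to the deleted part is unstated in the labels, so it gives no check of the MuRF2 null label. Trim54, the third family member, rose from 2.01 to 2.36 in wild type hearts to 2.61 to 3.05 in double null hearts, a difference of 0.61 ± 0.11 (adjusted p 0.00228), which stood at -0.69 when arrays were scaled by their medians.

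Of 12331 genes tested, 2737 (22.2%) differed at an adjusted p under 0.05, of which 1253 (10.2% of genes tested) rose and 1484 (12%) fell. Of these, 70 rose and 142 fell by over 2-fold. In 2286 of the 2737 all double null arrays lay on one side of all wild type arrays, and such a separation held for 25.5% of all genes tested. With the sign of each slide taken alone, 2735 of the 2737 differed in the same direction on slides 1 and 3, against 9027 of all 12331 genes. The calls were made from the same arrays, which favours such agreement, so it is no independent check. The split into rises and falls depends on the scaling. Rises made up 45.8% of calls after the intensity-dependent (loess) scaling used here, 33.3% with the log ratios of the scanner software, and 0.276% of 6886 calls when each array was only centred on its median. Median centring moved the median difference of all genes from 0.01 to -0.49, and the scanner software moved it to -0.18. Values are therefore given relative to the other genes of the same brightness, and 211 of the 1253 rises stayed above 0 and 878 above the shifted median with median centring.

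The slides and single arrays were looked at next. No gene passed the test of genotype by slide in limma, with 831 (6.74%) at an unadjusted p under 0.05. Slide 3 alone gave 2377 calls, and slide 1 alone, which holds the dimmest array, gave 0 at the adjusted threshold and 2627 at an unadjusted p under 0.05. This test of genotype by slide depended on single arrays, passing for 2364 genes without double null 1, for 99 without double null 2 and for 3 without double null 3. The count of calls between the genotypes was 2297 without double null 2, 1677 without wild type 2, 1547 without wild type 3 and 1801 without wild type 4. With the number of bright probes per array as a covariate, 1836 genes passed. All double null and all MuRF1 null MuRF2 het arrays were dimmer than all wild type arrays. Brightness and genotype can therefore not be fully told apart in that fit, here and wherever this covariate is given below. Of the 117 genes named here that passed, 18 missed the threshold with that covariate: Atp2a1, Pla2g5, Asb15, Kcnj3, Cacna2d1, Ltbp2, Ung, Myocd, Nr1d1, Kcna5, Asns, Pdlim3, Tnnc1, Ndufs1, Ttn, Jph2, Myl4 and Myl7. With scaling between arrays 9 missed it, namely Atp2a2, Ckmt2 (-0.50, adjusted p 0.197), Plin5, Tnnc1, Ndufs1, Cycs, Lum, Acaa2 and Myl7, and with the ratios of the scanner software 8, namely Asb15, Kcnj3, Tfdp1, Myocd, Kcna5, Psmd14, Lum and Myl7. Where a gene has several probes, their mean gave a smaller difference for, among others, Myh4 (-0.58), Atp2a1 (-0.62), Ttn (-0.62), Nedd4 (-0.80), Cxcl12 (-0.43), Abcc9 (-0.73), Acacb (-0.77), Agtr1a (-0.81) and Dglucy (-0.88), which all still passed. It was also smaller for Stat5b (-0.29), Fbxo31 (-0.49), Nr1d1 (-0.50), Thbs4 (1.27), Dct (1.27) and Asb15 (-1.11), which passed as well. Most named genes were well above background on all 8 arrays. On 3 of 4 double null arrays were Slc41a3, Kcnq1, Pla2g5, Tbx5, Cacna2d1, Ppargc1b, Eng, Sox18, Tgfb2, Lgals3, Gsta2, Tfdp1, Myocd, Lama5, Col4a1, Nnmt and Cdkn1a, Gsta2 was so on 3 wild type arrays as well, and other exceptions are given with the gene.

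**Figure D1:**
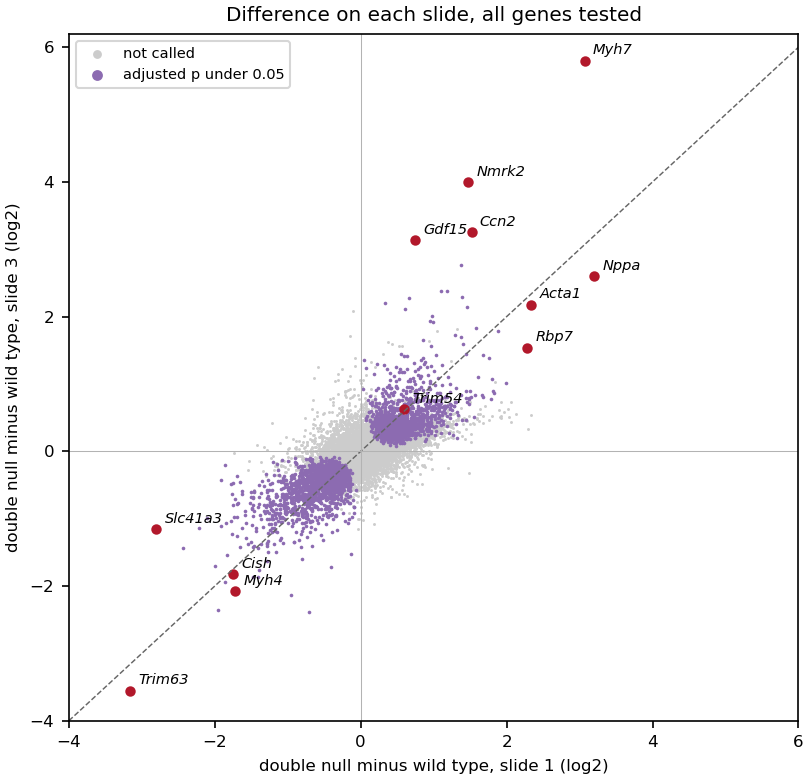
Differences between double null and wild type hearts on slide 1 (horizontal axis, log2) and on slide 3 (vertical axis, log2) for all genes tested, with genes at an adjusted p under 0.05 in purple, 12 named genes in red and the line of equal differences dashed. Trim63 lies near the line at -3.16 and -3.55, while Myh7, Nmrk2 and Gdf15 lie above it, at 3.07 and 5.80, 1.47 and 4.00, and 0.75 and 3.14.

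The genes of the fetal and stressed heart held the largest rises. Myh7, the beta myosin heavy chain of fetal and failing mouse heart, read -0.38, 2.81, 3.82 and 3.20 in double null and -1.75, -1.95, -2.48 and -2.09 in wild type hearts. All double null arrays were above all wild type arrays, with double null 1 well below the others, and the difference was 4.43 ± 0.72 (adjusted p 0.000904). Myh6, the alpha isoform that prevails in adult mouse heart, read 1.61, 2.44, 3.02 and 2.74 in double null and 3.88, 4.01, 4.15 and 3.83 in wild type hearts. It fell by 1.52 ± 0.31 (adjusted p 0.00359), and double null 1, the double null heart lowest for Myh7, was also lowest for Myh6. Nppa, which encodes atrial natriuretic peptide, read 4.63, 6.62, 4.4 and 5.18 in double null and 2.08 to 2.43 in wild type hearts, a difference of 2.90 ± 0.36 (adjusted p 0.000187). This probe was saturated on 1 double null array, which limits its value there. A second, unsaturated Nppa probe differed by 3.54, with 4.84, 5.42, 5.75 and 5.90 in double null and 1.77 to 2.10 in wild type hearts. Nppb read 5.4, 5.01, 5.65 and 5.70 against 3.90, 4.30, 2.93 and 3.66, a difference of 1.74 ± 0.33 (adjusted p 0.00267), with no overlap. Acta1 read -2.18, -0.32, -1.09 and -1.40 against -3.72 to -3.40 and rose by 2.26 ± 0.28 (adjusted p 0.000163).

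Of 31 genes of this list tested, 11 rose and 7 fell, against 10.2% and 12% of all genes. Their median difference was 0.34, against 0.01 over all genes, and 0.20 with array brightness as a covariate. With median centring 6 of the 11 rises stayed above 0, namely Myh7 (2.86), Nppa (1.89), Nppb (0.93), Acta1 (0.59), Ankrd1 (0.41) and Fhl1 (0.28). Fhl1, a LIM protein that binds titin, rose by 1.84 ± 0.29 (adjusted p 0.000722). Ankrd1, a titin-linked ankyrin repeat protein and a classic marker of strained heart muscle, was chosen after its values were seen. It read 4.36 to 5.66 against 3.22 to 3.74, a difference of 1.5 (adjusted p 0.0176), and gave an adjusted p of 0.0561 without double null 4. Among the falls were Atp2a2, the calcium pump of heart sarcoplasmic reticulum (-0.66 ± 0.14, but -0.06 with scaling between arrays, adjusted p 0.93), and Tbx5, a transcription factor of heart development (-0.94 ± 0.15). The list is one of known markers and was put together with results of these data known, so its direction is not independent evidence. In bulk heart RNA, fewer cells of a type and less RNA per cell cannot be told apart.

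**Figure D2:**
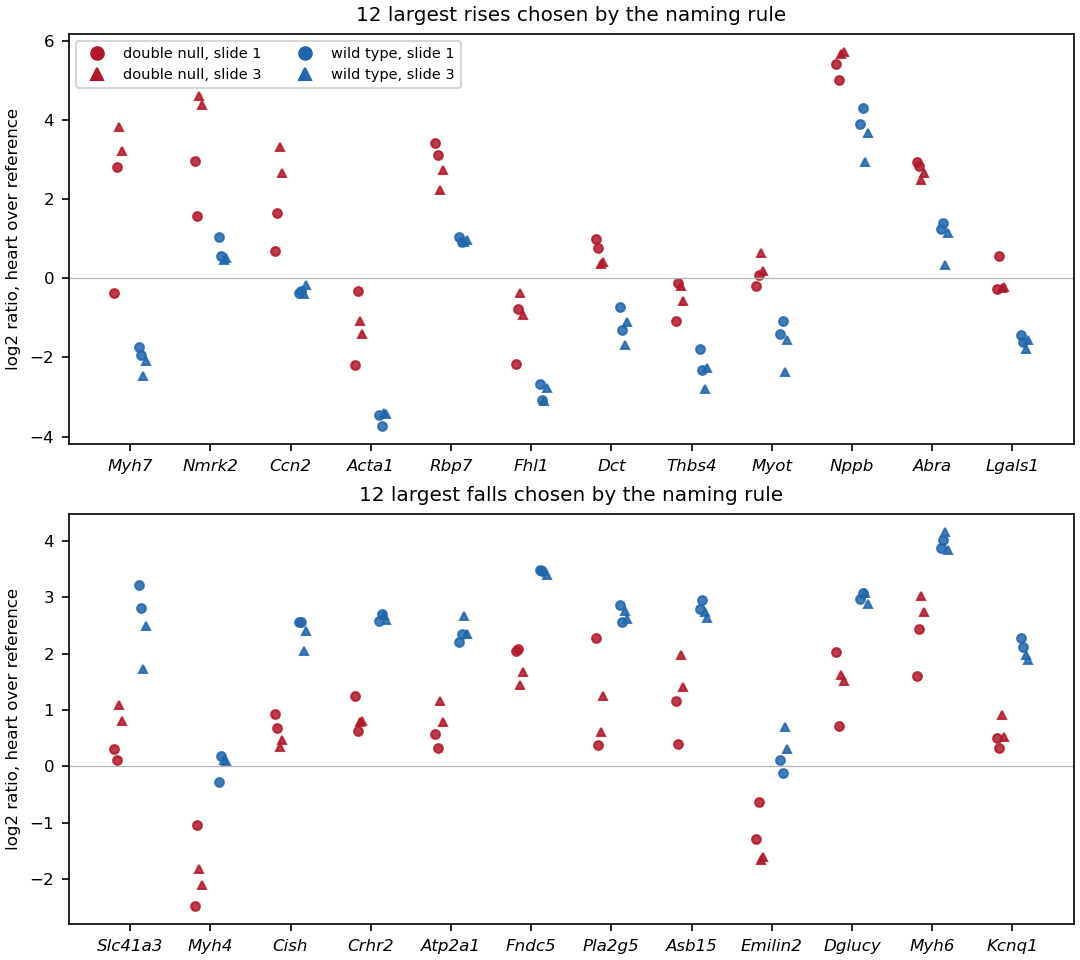
Log2 ratio of heart over reference (vertical axes) on each of the 8 arrays for the genes that the rule took as largest rises (upper panel) and largest falls (lower panel), with double null in red, wild type in blue, circles for slide 1 and triangles for slide 3. The groups do not overlap for any gene shown, as the rule required, and Myh7, Nmrk2 and Ccn2 span over 2 units among double null hearts while wild type hearts stay within 1.

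Several of the largest rises varied widely between double null hearts. Nmrk2, a nicotinamide riboside kinase of muscle that feeds NAD synthesis, read 2.95, 1.58, 4.59 and 4.37 in double null and 0.47 to 1.04 in wild type hearts, a difference of 2.73 ± 0.47 (adjusted p 0.00125). Ccn2, the matricellular protein CTGF, read 0.69, 1.65, 3.30 and 2.66 against -0.39 to -0.16 and rose by 2.38 ± 0.39 (adjusted p 0.000886). Gdf15, a stress cytokine, read 1.41, 0.61, 3.17 and 3.13 against -0.04 to 0.26 and rose by 1.95 ± 0.43 (adjusted p 0.00579), being well above background on 2 wild type arrays. For all 3 genes the double null hearts of slide 3 were above those of slide 1. Rbp7, a retinol-binding protein of adipose and endothelial cells, ran the other way, with 3.41, 3.1, 2.22 and 2.74 against 0.91 to 1.05 and a difference of 1.91 ± 0.39. Abra (STARS, an actin-binding activator of serum response factor) rose by 1.70 ± 0.27 and Tnfrsf12a (the TWEAK receptor Fn14, chosen after its values were seen) by 1.46 ± 0.23. Dct, an enzyme of melanin synthesis, read 0.37 to 0.99 against -1.69 to -0.72 and rose by 1.84 ± 0.23 (adjusted p 0.000194). Uchl1, a deubiquitinase best known from neurons, read -1.33 to -0.13 against -2.58 to -2.12 and rose by 1.45 ± 0.28 (adjusted p 0.00308). All of these stayed above 0 with median centring.

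Of 30 genes of the Z-disc and of titin's neighbourhood, 9 rose and 4 fell (median 0.36), against 10.2% and 12% of all genes, so that the share of falls was near that of all genes, and 6 of the 9 stayed above 0 with median centring. Myot (myotilin, a Z-disc protein that binds MuRF proteins) read -0.19, 0.07, 0.63 and 0.19 in double null and -1.42, -1.09, -2.38 and -1.56 in wild type hearts, a rise of 1.79 ± 0.30 (adjusted p 0.00115). Pdlim3, an actinin-linked LIM protein, rose by 1.05 ± 0.23, and was at -0.02 with median centring. Ttn itself, the giant protein to which MuRF1 binds at the M-line, was chosen after its values were seen. It read -2.56 to -1.88 against -1.18 to -0.52, a fall of 1.28 ± 0.34 (adjusted p 0.0154), and had an adjusted p of 0.0508 without wild type 3. Of 17 genes of the thick filament and M-line, 5 rose and 5 fell, against 10.2% and 12% of all genes. The M-line proteins Myom1 (-1.11 ± 0.21) and Ckm, the muscle creatine kinase and a described MuRF1 target (-0.89 ± 0.17), were among the falls, all their double null arrays lying below all wild type arrays.

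Among 24 partners and substrates described for MuRF proteins, 4 rose and 6 fell, against 10.2% and 12% of all genes, with a median of 0.03. Sqstm1, the autophagy receptor p62, read 1.43, 1.81, 1.81 and 1.70 against 0.54 to 0.86, a difference of 1.02 ± 0.12 (adjusted p 0.000154) that became -0.39 with median centring. Ppara, the fatty acid receptor that MuRF1 has been described to modify, read 0.06 to 0.14 against 0.64 to 0.87 and fell by 0.60 ± 0.08 (adjusted p 0.000348). These are RNA levels, and a substrate of a ubiquitin ligase can change in protein without a change in RNA. Of 25 muscle ubiquitin ligases tested, 3 rose and 7 fell, against 10.2% and 12% of all genes. The 7 include Trim63, whose fall was set by the genotype. Nedd4, a ligase of membrane proteins, read -2.47, -1.56, -1.79 and -2.17 against -0.65 to -0.47, a fall of 1.43 ± 0.17 (adjusted p 0.000163). Asb15, a muscle ligase adaptor, read 1.15, 0.40, 1.98 and 1.40 against 2.63 to 2.95 (-1.54 ± 0.40, adjusted p 0.0149), and Fbxo31 fell by 0.83 ± 0.13. Of the proteasome, 10 of 40 genes rose and 1 fell, against 10.2% and 12% of all genes. Their median was 0.14, and none of the 10 stayed above 0 with median centring. An example is Psmd14, a deubiquitinating subunit, at 0.46 ± 0.11, which became -0.62.

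Potassium channel genes were mostly lower in double null hearts. Of 17 tested, 13 fell and 0 rose, against 12% of all genes that fell, and their median difference was -0.82. By array, the median of the list relative to wild type was -0.71, -1.43, -0.60 and -0.61 in double null hearts and -0.10 to 0.15 in wild type hearts, double null 2 being lowest. The median difference was -0.69 without double null 2 and -0.30 with array brightness as a covariate. Kcnq1, the pore of the slow repolarising current, read 0.51, 0.33, 0.91 and 0.52 against 1.89 to 2.28, a fall of 1.49 ± 0.22 (adjusted p 0.000468). Kcne1, its partner subunit, was not well above background on any double null array, so that only a bound can be given. Its Cy5 level was at least 2.53-fold lower in double null hearts, taking on each array the higher of the probe's own signal and the lowest signal well above background (adjusted p 7.87e-05). Kcnj3, of the acetylcholine-gated channel, was likewise at least 1.57-fold lower (adjusted p 0.0123). Kcnd2, of the transient outward current, read -0.17, -0.10, 0.44 and 0.14 against 1.14 to 1.68 (-1.42 ± 0.21, adjusted p 0.000525) and was well above background on 2 double null arrays. Abcc9, the sulfonylurea receptor of heart and vessel, fell by 1.20 ± 0.20, and Kcna5 by 1.04 ± 0.24.

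Genes of other currents and of calcium cycling came next. Of 21 sodium channel and intercalated disc genes, 8 fell and 0 rose, against 12% of all genes that fell (median -0.30, and -0.18 with array brightness as a covariate). Dsg2, a desmosomal cadherin, fell by 0.93 ± 0.17 and was well above background on 1 double null array, which limits the precision of the size (-2.20 with the ratios of the scanner software). Of 25 calcium cycling genes 2 rose and 7 fell (median -0.18), against 10.2% and 12% of all genes, the rises being near the general share. Atp2a2 read 4.05, 4.58, 4.15 and 4.15 against 4.76 to 5.01 (adjusted p 0.00497). The lumenal calcium-binding protein Hrc read 1.02 to 1.26 against 2.17 to 2.28, with tight groups far apart (-1.09 ± 0.18, adjusted p 0.00106). Jph2, which ties the sarcoplasmic reticulum to the cell membrane and was chosen after its values were seen, fell by 1.02 ± 0.27 (adjusted p 0.0158), and the channel subunit Cacna2d1 by 0.83 ± 0.18. Smyd2, a lysine methyltransferase of muscle placed in that list, rose by 0.50 ± 0.07 and was at -0.79 with median centring. Tnnc1, troponin C of the thin filament, rose by 0.49 ± 0.12 and was at -0.84 with that scaling. Of 21 thin filament genes 2 rose and 1 fell, against 10.2% and 12% of all genes.

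Receptors and signalling genes were lower in part. Of 22 neurohormonal receptor and effector genes, 10 fell and 0 rose (median -0.37), against 12% of all genes that fell, and the median was -0.18 with array brightness as a covariate. Crhr2, the urocortin receptor of heart, read 1.24, 0.63, 0.79 and 0.80 against 2.58 to 2.71 (-1.78 ± 0.22, adjusted p 0.000177). Agtr1a, the angiotensin receptor, read 0.33 to 0.69 against 1.65 to 2.21 (-1.31 ± 0.20), and Adcy6, the main adenylyl cyclase of heart muscle, -0.73 to -0.25 against 0.38 to 0.62 (-1.0 ± 0.13). Cish, a feedback inhibitor of growth hormone and cytokine signalling,, was low on every double null array. It read 0.93, 0.68, 0.34 and 0.46 in double null and 2.56, 2.56, 2.05 and 2.40 in wild type hearts, a fall of 1.79 ± 0.19 (adjusted p 8.52e-05), with -1.75 on slide 1 and -1.82 on slide 3. Of its list of 22 growth hormone and cytokine genes, 5 fell and 1 rose, against 12% and 10.2% of all genes. The falls included the feedback gene Socs2 (-0.60 ± 0.15, adjusted p 0.0125) and the transcription factor Stat5b (-0.54 ± 0.09). Myocd, the cardiac and smooth muscle partner of serum response factor, fell by 0.93 ± 0.21 (adjusted p 0.00759). The clock repressor Nr1d1 read 0, 0.12, 0.94 and 0.41 against 1.03 to 1.49 (-0.90 ± 0.22) and was well above background on 2 double null arrays, 1 of 3 falls and 0 rises among 17 clock genes, near the 12% of all genes that fell. The labels used here do not state the time of day at harvest.

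Further large falls lay outside the lists given so far or in lists with calls in both directions. Slc41a3, a magnesium transporter of mitochondria, read 0.30, 0.12, 1.09 and 0.81 against 3.21, 2.81, 1.72 and 2.49. It fell by 1.98 ± 0.37 (adjusted p 0.00223), and its wild type hearts differed between slides as well. Myh4, the fast IIb myosin, read -2.47 to -1.05 against -0.27 to 0.19 (-1.90 ± 0.27), and Atp2a1, the fast muscle calcium pump, read 0.33 to 1.16 against 2.20 to 2.67 (-1.68 ± 0.36). The mean of all probes gave -0.58 for Myh4 and -0.62 for Atp2a1, so the size of these 2 falls depends on the probe. Myh4 and Atp2a1 belong to the fast skeletal list, of whose 18 tested members 3 rose and 2 fell, against 10.2% and 12% of all genes. Fndc5, the precursor of irisin, read 2.05, 2.08, 1.45 and 1.68 against 3.40 to 3.48 with a wide gap between the groups (-1.64 ± 0.13, adjusted p 6.52e-06). It is counted among the regulators of mitochondrial biogenesis given below. The secreted phospholipase Pla2g5 (-1.57 ± 0.37), the matrix glycoprotein Emilin2 (-1.54 ± 0.22) and the mitochondrial enzyme Dglucy (-1.54 ± 0.31) also fell. Not well above background on any double null array, and so given as bounds, were Lingo3 (at least 1.96-fold lower), Tmprss13 (at least 1.68-fold) and Tbc1d4, a regulator of glucose transporter traffic (at least 1.62-fold). These bounds are of the Cy5 level alone and not of the ratio to the reference.

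Many enzymes of energy metabolism were lower, most of those named by about 2-fold or less. Of 23 genes of the citric acid cycle, 18 fell and 0 rose, against 12% of all genes that fell, with a median of -0.59 and array medians of -0.57, -0.71, -0.58 and -0.65 in double null against -0.12 to 0.06 in wild type hearts. Sucla2, a subunit of succinyl-CoA synthetase, read -0.25 to 0.24 against 0.72 to 1.29 (-0.98 ± 0.13, adjusted p 0.000233). Sdhb, of succinate dehydrogenase, read 1.25 to 1.63 against 2.15 to 2.28, with wild type 3 missing because its spot was irregular (-0.84 ± 0.12). Dlat, of pyruvate dehydrogenase, fell by 1.02 ± 0.17 and Dlst, of oxoglutarate dehydrogenase, by 0.73 ± 0.12. Of 37 genes of fatty acid oxidation, 18 fell and 0 rose (median -0.41), against the same 12%. Cpt2, of the carnitine shuttle, read 1.39, 1.58, 1.82 and 1.69 against 2.38 to 2.63 (-0.92 ± 0.14), Acadvl, the very long chain dehydrogenase, 0.64 to 1.26 against 1.66 to 1.78 (-0.87 ± 0.13), and Acacb, which makes the inhibitor malonyl-CoA, -0.22 to 0.62 against 1.36 to 1.71 (-1.38 ± 0.21). Enzymes of the pathway and an enzyme that restrains it were thus both among the falls. Of 23 genes of ketone and branched-chain amino acid breakdown, 10 fell and 0 rose (median -0.33), again against 12%, led by the phosphatase Ppm1k (-1.23 ± 0.23), with Mmut (-0.76 ± 0.12) and Bckdhb (-0.83 ± 0.14).

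Whether genes of the respiratory chain differ from the lists above was not tested. Of 37 genes of complex I, 2 rose and 6 fell, and of 40 of complexes III to V, 0 rose and 6 fell, against 12% of all genes that fell. The medians were -0.11 and 0.09, and that of complexes III to V was 0.35 on slide 1 and -0.22 on slide 3. With array brightness as a covariate they were -0.41 and -0.54, against -0.40 for fatty acid oxidation and -0.49 for the citric acid cycle. Ndufa10 (-0.96 ± 0.11), Ndufs1 (-0.48 ± 0.11), Cox7c (-1.08 ± 0.19) and Cycs (-0.56 ± 0.13) were among the falls. Of 20 regulators of mitochondrial biogenesis and shape, 10 fell and 0 rose (median -0.37, and -0.16 with array brightness as a covariate), against 12% of all genes that fell. Among them were the receptor Esrrb (-0.86 ± 0.14, well above background on 1 double null array), the coactivator Ppargc1b (-0.80 ± 0.14) and the fusion protein Opa1 (-0.90 ± 0.18). Of 26 glucose uptake and glycolysis genes, 2 rose and 7 fell (median -0.18), against 10.2% and 12% of all genes, with phosphofructokinase Pfkm (-0.84 ± 0.15) and hexokinase Hk2 (-1.12 ± 0.21). Ckmt2, the mitochondrial creatine kinase, whose call was lost with scaling between arrays, read 2.97, 3.20, 3.01 and 2.94 against 3.81 to 4.13 and fell by 0.96 ± 0.10 (adjusted p 7.87e-05). In the same list of 21 creatine, adenylate and NAD genes, 3 rose and 4 fell, against 10.2% and 12% of all genes. Nnmt, which methylates nicotinamide, rose by 0.69 ± 0.11 beside Nmrk2. The lipid droplet protein Plin5 fell by 0.57 ± 0.14.

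**Figure D3:**
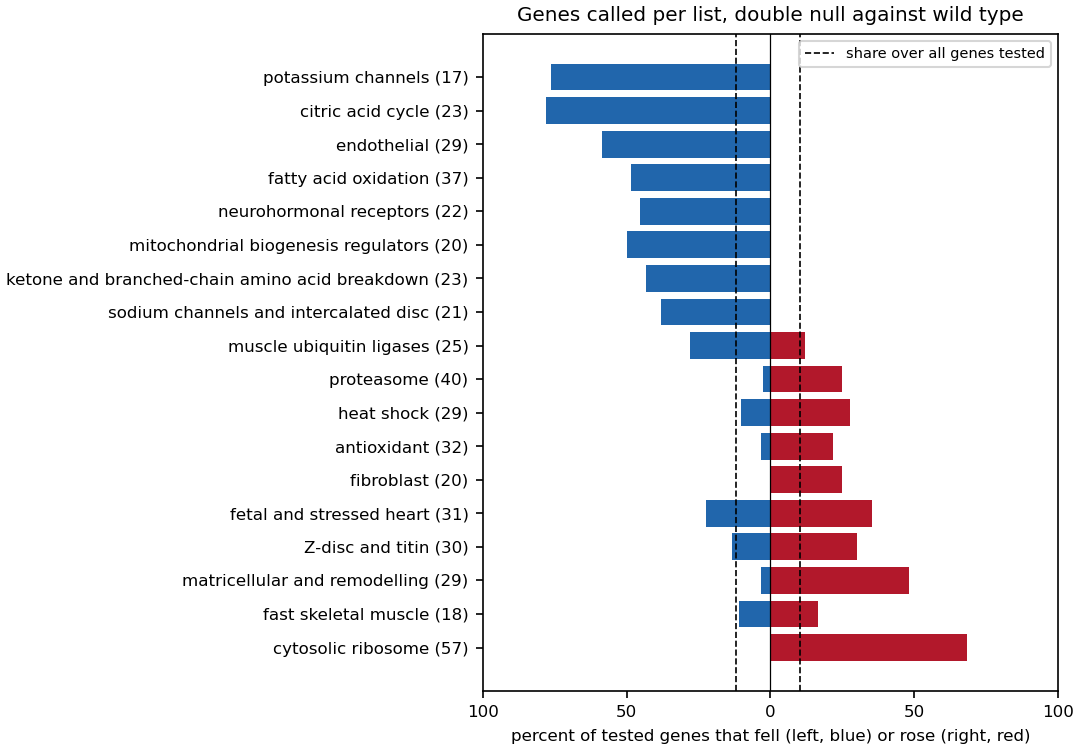
Percent of the tested genes of 18 lists that fell (left, blue) or rose (right, red) in double null against wild type hearts, with the number tested in brackets and the shares over all genes, 12% and 10.2%, as dashed lines. Citric acid cycle and potassium channel genes reach furthest to the left, with 18 of 23 and 13 of 17, and the cytosolic ribosome furthest to the right, with 39 of 57.

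Endothelial genes were lower as well. Of 29 endothelial markers tested, 17 fell and 0 rose (median -0.45), against 12% of all genes that fell, and the array medians were -0.46, -0.47, -0.50 and -0.50 in double null against -0.08 to 0.10 in wild type hearts. Ptprb, the endothelial phosphatase VE-PTP, read 0.17, 0.49, 0.52 and 0.19 against 1.53 to 1.77 (-1.32 ± 0.19, adjusted p 0.000441). Flt1, a receptor for VEGF, read 0.37 to 0.76 against 1.55 to 1.89 (-1.17 ± 0.19), Eng fell by 0.65 ± 0.10 and Sox18 by 0.74 ± 0.12. The vascular chemokine Cxcl12, which attracts CXCR4 cells, fell by 1.07 ± 0.20. Of 23 collagen and basement membrane genes, 5 fell and 0 rose, against 12% of all genes that fell. The 5 were type IV collagens and laminins, such as Lamb2 (-1.15 ± 0.22), Lama5 (-0.90 ± 0.15) and Col4a1 (-0.88 ± 0.18). Col1a1, Col1a2, Col3a1, Col5a1 and Col5a2, the fibrillar collagens of the list, did not pass.

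Matricellular and remodelling genes were called mostly as higher. Of 29 tested, 14 rose and 1 fell (median 0.46), against 10.2% of all genes that rose, and 6 of the 14 stayed above 0 with median centring. The median was 0.13 with array brightness as a covariate. After Ccn2 the largest was Thbs4, a thrombospondin of strained heart, which read -1.09, -0.12, -0.21 and -0.58 against -2.80 to -1.79 (1.80 ± 0.29, adjusted p 0.000868). Tgfb2 (0.87 ± 0.18) and the TGF-beta binding protein Ltbp2 (0.99 ± 0.22) also rose. The fall was that of Timp3, an inhibitor of metalloproteases chosen after its values were seen (-0.80 ± 0.19, adjusted p 0.00859), with overlapping groups. Lgals1, a galectin, read -0.27, 0.57, -0.26 and -0.22 against -1.79 to -1.44 (1.55 ± 0.22), and Lgals3, a galectin also used as a macrophage marker, -0.81 to 0.07 against -1.61 to -1.02 (1.01 ± 0.20). Of 20 fibroblast markers 5 rose and 0 fell, against 10.2% of all genes that rose (median 0.28, and 0.06 with array brightness as a covariate), with 1 of the 5 above 0 with median centring. Lum, a proteoglycan of that list, rose by 0.74 ± 0.19 and was at -0.57 with median centring.

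Markers of further cell types were looked at for tissue carried along. The counts in this part stand beside 10.2% of all genes that rose and 12% that fell. Of 17 macrophage markers 1 rose (Lgals3) and 0 fell, with array medians of -0.14 to 0.07 in double null and -0.16 to 0.20 in wild type hearts. The array medians of atrial markers ran from -0.37 to 0.91 against -0.04 to 0.10, and 3 of 10 rose and 4 fell. The rises were Nppa and the atrial myosin light chains Myl4 (0.74 ± 0.21, adjusted p 0.0206) and Myl7 (0.77 ± 0.27, adjusted p 0.0475), both chosen after their values were seen, and the falls included Kcnj3, Kcna5 and Tbx5. Myl4 read -2.22 to -1.40 against -2.94 to -2.55 and Myl7 -1.55 to -0.17 against -1.96 to -1.66, both highest on double null 2. Without double null 2 they differed by 0.55 (adjusted p 0.0523) and 0.48 (adjusted p 0.123), and with median centring they were at -0.32 and -0.15. Myl4 also missed the threshold without wild type 3, and Myl7 without any 1 array but double null 3, at adjusted p values up to 0.0663 and 0.123. The part of atrial tissue in the rise of Nppa was not tested. Those of fast skeletal muscle ran from 0.13 to 1.39 against -0.18 to 0.15, of adipocytes from 0.12 to 1.60 against -0.26 to 0.16 (1 of 11 rose), of red cells from 0.17 to 0.94 against -0.37 to 0.30 (0 of 5), and of lung, liver and thymus from 0.07 to 1.18 against -0.22 to 0.16 (3 of 8 rose). In each of these lists double null 2, the dimmest array, was highest. With array brightness as a covariate, the median differences went from 0.67 to -0.08 for fast skeletal muscle, from 0.67 to -0.24 for adipocytes, from 0.35 to 0.29 for red cells, from 0.48 to -0.15 for lung, liver and thymus and from 0.18 to -0.32 for atrial markers. Of 16 smooth muscle and pericyte markers 2 rose and 6 fell.

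Of 29 heat shock genes 8 rose and 3 fell, against 10.2% and 12% of all genes, with 1 of the 8 above 0 under median centring. Hsp90aa1 read -0.41, -0.31, -0.09 and -0.29 against -1.72 to -1.24, a rise of 1.23 ± 0.15 (adjusted p 0.000154) that was -0.12 with median centring. Cryab (0.75 ± 0.09), the small heat shock protein of the Z-disc, and Hspb1 (0.90 ± 0.13) rose and were likewise at -0.59 and -0.39. The mean of all Cryab probes differed by 0.07 (adjusted p 0.64), so its probes disagree. The exception is Hspa1a, an inducible Hsp70 gene chosen after its values were seen, at 1.35 ± 0.28 and 0.52. It shares near-identical sequence with Hspa1b, so the probe may read both. Hspa5, the chaperone of the endoplasmic reticulum, fell from 0.09 to 0.45 to -0.50 to -0.42 (-0.69 ± 0.09, adjusted p 0.000217). Of 31 genes of the integrated stress and unfolded protein response, 5 rose and 3 fell, against 10.2% and 12% of all genes. The falls were thus near the general share. The rises included Gdf15 and Asns (0.96 ± 0.24, and -0.04 with median centring). Of 32 antioxidant genes 7 rose and 1 fell (median 0.24, and 0.10 with array brightness as a covariate), against the same shares. Gsta1, a glutathione transferase, read -0.16 to 0.15 against -2.05 to -1.35 (1.53 ± 0.20, adjusted p 0.000308) and stayed at 0.71, Gsta2 rose by 0.72 ± 0.13 and stayed at 0.25, and Gpx3 rose by 0.80 ± 0.17 and was at -0.03. The 2 transferases are close copies and can share signal. Ulk1, the kinase that starts autophagy, fell by 1.21 ± 0.18. Of its list of 23 autophagy and FoxO genes 5 rose and 4 fell, the targeted gene Trim63 among the 4, against 10.2% and 12% of all genes.

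Genes of the cytosolic ribosome showed the most rises of any list used here. Of 57 tested, 39 rose and 0 fell, against 10.2% of all genes that rose, with a median of 0.84, which was -0.80 with median centring, where none of the 39 stayed above 0. The array medians were 0.73, 1.47, 0.40 and 0.61 in double null hearts, highest on the dimmest array, and -0.20 to 0.20 in wild type hearts. The median difference was 0.58 without double null 2 and 0.18 with array brightness as a covariate. Rpl5 read -0.82, -0.21, -0.95 and -0.81 against -1.72 to -1.60 (0.96 ± 0.17), and was at -0.76 with median centring. Ribosomal protein genes have many processed copies, so their probes can share signal.

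Genes tied to E2F1, which the title of the series names, were called as higher than in wild type hearts in shares near or below that of all genes. E2f1 itself was not tested, since its brighter probe was well above background on 2 of 16 arrays and the other on none. Of 18 E2F, DP and pocket protein genes tested, 1 rose and 0 fell, against 22.2% of all genes called. It was Tfdp1, a partner of E2F proteins, at -0.46, -0.10, -0.11 and -0.37 against -0.98 to -0.67 (0.52 ± 0.10, adjusted p 0.00357), and at -0.06 with median centring. Cdkn1a, the cell cycle inhibitor p21, read -0.46 to -0.13 against -0.83 to -0.06, with overlapping groups and a difference of 0.09 ± 0.15 that did not pass (adjusted p 0.697). Of 40 DNA replication genes that are E2F targets, 5 rose and 1 fell, against 10.2% and 12% of all genes. Their median was 0.23, and -0.07 with array brightness as a covariate, and none of the 5 stayed above 0 with median centring. In 11 of the 40 all double null arrays lay above all wild type arrays and in 1 below, against 12.5% and 12.9% of all genes. The fall was Ung, a uracil glycosylase (-0.75 ± 0.17). Of 15 mitosis genes 2 rose and 0 fell, and of 32 interferon and MHC genes 0 rose and 3 fell, against the same shares. The median of the mitosis genes was 0.49, and -0.11 with array brightness as a covariate.

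**Figure D4:**
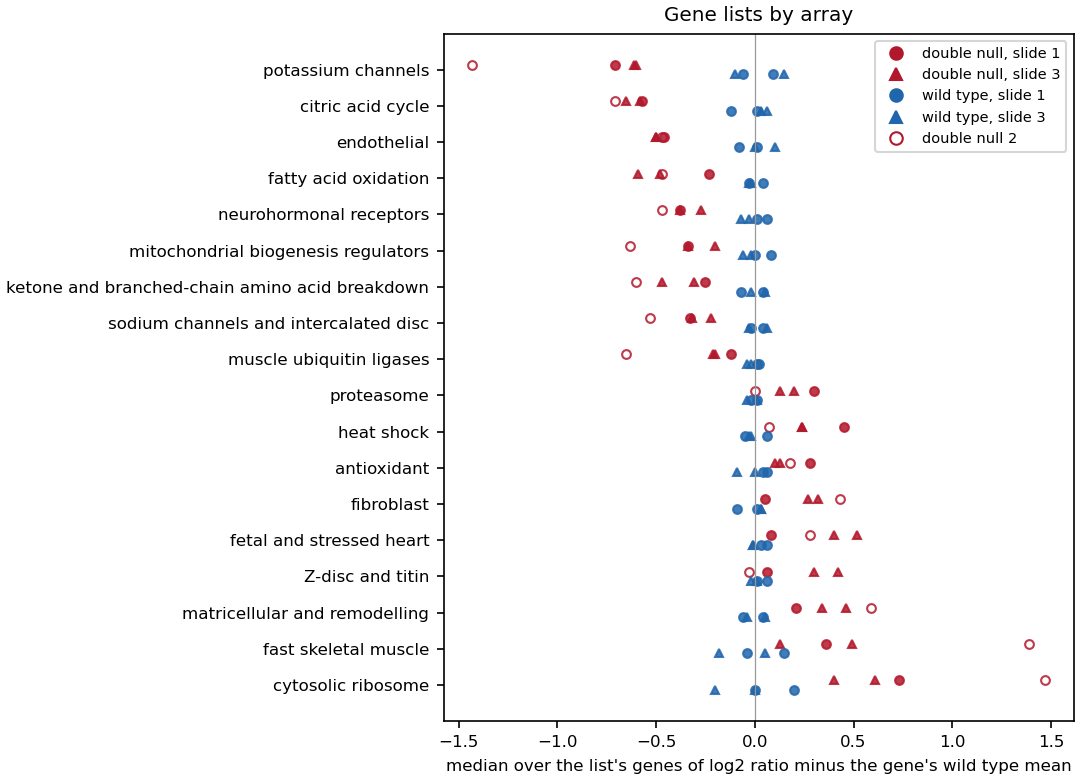
Median over the tested genes of each of 18 lists of the log2 ratio minus the gene's wild type mean (horizontal axis), with 1 point per array, double null in red and wild type in blue, circles for slide 1, triangles for slide 3 and an open circle for double null 2. The endothelial medians of the double null arrays lie together at -0.50 to -0.46, while those of the cytosolic ribosome spread from 0.40 to 1.47 with double null 2 highest.

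The double null hearts were also set against the hearts that keep 1 allele of MuRF2 or of MuRF1. Each of the other genotypes was on a slide of its own, so that genotype and slide cannot be told apart there, and the arrays of MuRF1 het MuRF2 null hearts were read with a later version of the scanner software. Against MuRF1 null MuRF2 het hearts, which were about as dim (6402 to 15067 probes), 43 of 12331 genes (0.349%) differed, 20 higher (0.162%) and 23 lower (0.187%) in double null hearts. That count was 0 with only the arrays of these 2 groups in the fit and 3 to 359 when any 1 of their arrays was left out. Against MuRF1 het MuRF2 null hearts, which were brighter (16129 to 17391 probes), 3251 (26.4%) differed, 1690 (13.7%) higher and 1561 (12.7%) lower. The double null arrays are shared by these comparisons and that with wild type, so values are given side by side. Trim63 means were -0.72 (SD 0.27) in double null, -0.64 (SD 0.22) in MuRF1 null MuRF2 het, 1.94 (SD 0.21) in MuRF1 het MuRF2 null and 2.63 (SD 0.09) in wild type hearts.

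Members of the fetal and metabolic lists were among the 43. Nppa was at 5.21 (SD 1.00) in double null, 2.80 (SD 0.18) in MuRF1 null MuRF2 het, 3.18 (SD 0.56) in MuRF1 het MuRF2 null and 2.31 (SD 0.16) in wild type hearts. The first of these exceeded the second by 2.41 ± 0.36 (adjusted p 0.0114) and the third by 2.02 ± 0.36 (adjusted p 0.00143). Nppb exceeded them by 1.88 ± 0.33 (adjusted p 0.026) and 1.51 ± 0.33, Acta1 by 1.59 ± 0.28 (adjusted p 0.0253) and 1.35 ± 0.28, and Ccn2 by 2.18 ± 0.39 (adjusted p 0.026) and 2.62 ± 0.39. Myh7 was at 2.36 (SD 1.87), -0.56 (SD 1.15), -0.67 (SD 0.76) and -2.07 (SD 0.31) in the same order. Its difference of 2.93 ± 0.72 from MuRF1 null MuRF2 het hearts did not pass (adjusted p 0.102), and that of 3.03 ± 0.72 from MuRF1 het MuRF2 null hearts did (adjusted p 0.00718). Cish was at 0.60 (SD 0.26), 1.57 (SD 0.35), 1.90 (SD 0.31) and 2.39 (SD 0.24), and Fndc5 at 1.81 (SD 0.30), 2.92 (SD 0.19), 3.13 (SD 0.14) and 3.45 (SD 0.04), each lowest in double null hearts and passing against all other genotypes.

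Fatty acid oxidation held the most calls of any list against MuRF1 null MuRF2 het hearts, with 7 of 37 lower and 0 higher, against 0.187% of all genes that were lower. These are part of the 43 calls, a count that was 0 with median centring and with only the arrays of these groups. Against MuRF1 het MuRF2 null hearts, 16 of the 37 were lower and 3 higher, against 12.7% and 13.7% of all genes. The genes named here beyond Cpt2, Acadvl and Ckmt2 were chosen after their values were seen. Eci1, an enoyl-CoA isomerase, was at 0.75 (SD 0.27) in double null hearts and at 1.58, 1.5 and 1.42 in MuRF1 null MuRF2 het, MuRF1 het MuRF2 null and wild type hearts. Hadh was at 0.41 (SD 0.26) against 1.18, 1.24 and 1.22, and Acaa2 at 0.64 (SD 0.49) against 1.70, 1.58 and 1.55. In these genes the other 3 genotypes lay close together and the double null hearts below all of them. Crat, which buffers acetyl-CoA, was at 0.61 (SD 0.05) against 1.26, 1.47 and 1.64, and Got1, of the malate-aspartate shuttle, at 1.38 (SD 0.12) against 2.14, 2.12 and 2.31. Potassium channels gave 0 calls among 17 against MuRF1 null MuRF2 het hearts (median -0.29) and 14 falls against MuRF1 het MuRF2 null hearts (median -0.92). Kcnq1 was at 0.57 (SD 0.24) in double null, 1.18 (SD 0.59), 1.93 (SD 0.15) and 2.06 (SD 0.17) in the others. Against MuRF1 het MuRF2 null hearts, 15 of 29 endothelial genes were lower, against 12.7% of all genes, and 29 of 57 ribosomal genes were higher, against 13.7%. Against MuRF1 null MuRF2 het hearts both lists gave 0 calls, where 0.349% of all genes were called, so that a count of 0 is near the background. Of the genes tied to E2F1, 6 of 18 E2F, DP and pocket protein genes and 6 of 15 mitosis genes were higher than in MuRF1 het MuRF2 null hearts, and 0 lower. Of the 40 replication genes 5 were higher and 4 lower there, against 13.7% and 12.7% of all genes. Whether these lists differ between the comparisons was not tested.

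**Figure D5:**
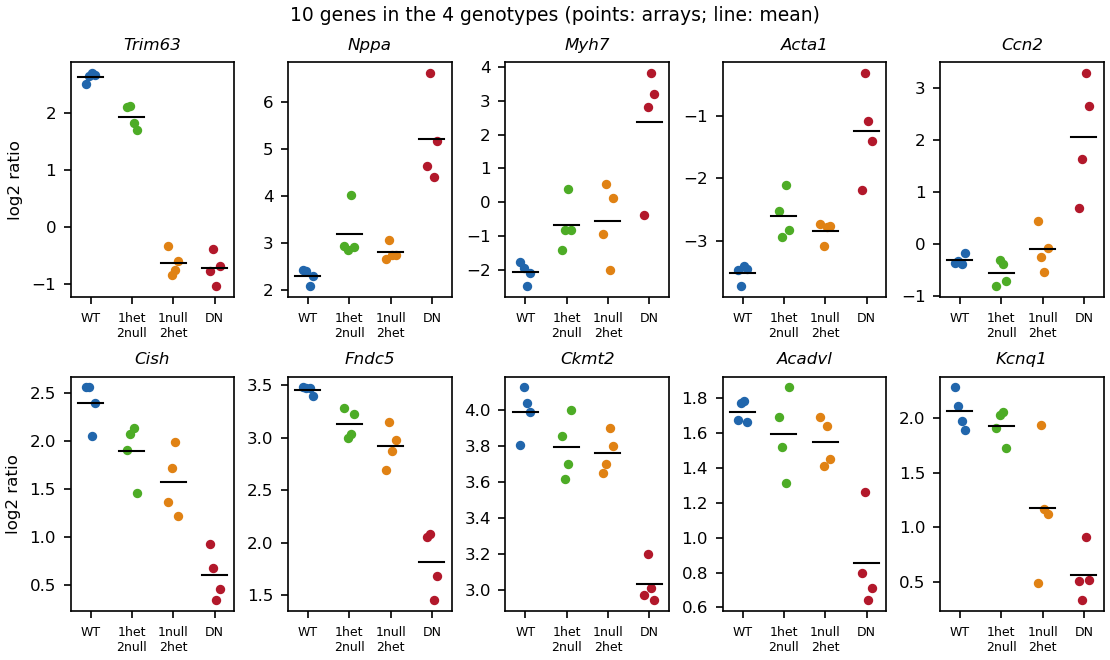
Log2 ratio of heart over reference (vertical axes) of 10 genes in wild type (WT), MuRF1 het MuRF2 null (1het 2null), MuRF1 null MuRF2 het (1null 2het) and double null (DN) hearts, with 1 point per array and a line at the mean of 4 arrays. Trim63 is low in both genotypes null for MuRF1 (-0.64 and -0.72), whereas Ckmt2 and Acadvl are low in double null hearts (3.03 and 0.85) and close together in the other 3 genotypes.

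Genes near Trim63 were counted, since a targeted allele can carry flanking sequence of another strain. Of 210 tested genes within 10 Mb on chromosome 4, 51 (24.3%) were called, against 22.2% of all genes tested. Fndc5 and Pla2g5, of the largest falls, and Sdhb lie in this window, and the part of flanking sequence in their falls was not tested. Nppa and Nppb lie further along chromosome 4, outside this window, and the part of flanking sequence in their rises was not tested either.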

How the data were processed

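RNA of 16 mouse hearts was measured on 2-colour Agilent arrays, each an independent heart per the labels. Per the file headers, spot and local background intensity came from GenePix scans read by the Agilent software Feature Extraction (9.1.3.1, and in the MuRF1 het MuRF2 null group 9.5.3.1), and the deposited log10 ratio of Cy5 over Cy3 was background adjusted and dye normalized by that software. The labels' protocol names a Cy3 dye alone, and the channels follow the labels of each sample. The authors' deposited value table is on a log2 scale and centred on each probe's median over the arrays (every probe's median lies within 0.01 of 0). It was used as an alternative, and what other scaling it had is unknown.

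From mean and background intensities, ratios were computed with limma 3.58.1 in R 4.3.3 by normexp (offset 50) and loess within arrays. After 1639 control spots were left out, 43379 spots remained. Irregular spots among these were left out as well, and spots of a probe were averaged. Of 41174 probes, 16810 were kept that were well above background in Cy5 on at least 4 of 16 arrays, and the brightest probe stood for each of 12331 genes. Names came from RefSeq through accessions for 22951 probes. The values of double null 2 had been rounded before deposit, and names altered in that file were taken from another array. All 16 arrays entered 1 fit with a mean per genotype (limma, two-sided, Benjamini-Hochberg over all genes, threshold 0.05). Scripts were tested on simulated data. Of genes given a log2 change of 0.5, 1 or 2 there, 36 of 67, 63 of 67 and 66 of 66 were called. Among genes given no change, 41 were called as well.

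Named genes were the 3 MuRF genes with 7 heart and cell cycle genes; the 12 largest rises and falls that did not overlap between groups, were measured on 3 or more arrays of each group, unsaturated and alike in sign on both slides; the 5 largest seen above background in 1 group only; and up to 4 members with the smallest p of each list. The members and lists were chosen with earlier results of these data known. Alternatives were other background, scaling, filter and probe choices, array weights, brightness, slide and replicate blocks, and leaving out each array. Some genes that the rule takes are not reported here.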

Additional observations from a re-analysis of the deposited data

Results flagged for a closer look

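In 25 of 336 groups of 4 arrays looked at, 1 array lay apart from the other 3 by Dixon's test at the 95% level, which chance gives in about 1 of 20 groups. Of these, 13 were double null 2, the dimmest array, 3 were double null 1 and 9 were wild type arrays.

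Double null 2 lay apart for Trim55 (-0.52, the others at -1.66 to -1.59), Lgals1 (0.57, the others at -0.27 to -0.22), Kcne1 (-0.05), Myl4 (-1.40), Ppm1k (0.59) and Cycs (1.54). It also lay apart in the list medians of ubiquitin ligases (-0.65), thin filament (0.74), potassium channels (-1.43), creatine, adenylate and NAD genes (-0.24), adipocyte markers (1.60), E2F, DP and pocket proteins (0.20) and sex-linked markers (-0.78).

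Double null 1 lay apart for Sdhb (1.63), Sox18 (0.07) and Stat5b (0.13). Wild type 1 lay apart for Nmrk2 (1.04), Kcnd2 (1.14) and Dsg2 (0.89), wild type 3 for Gsta1 (-2.05) and Pdlim3 (-3.07), and wild type 4 for Fndc5 (3.40) and the median of angiogenic ligands (-0.02). Wild type 2 lay apart in the medians of fatty acid oxidation (0.04) and fibroblast markers (-0.09).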

How the results depend on the processing

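Against wild type, 2737 genes passed. The count was 6886 with median centring, 1494 with a strict filter on dim probes (fewer genes tested), 8116 with array weights, whose estimate did not converge fully, 0 on slide 1 alone (fewer samples), and 1579 without double null 2 and wild type 2, the arrays low in Y-linked genes, a choice made after seeing the data. It ran from 1547 to 3610 when 1 array was left out, and stayed within 1.5 times of 2737 under the other alternatives except the replicate block. Against MuRF1 null MuRF2 het hearts, 43 passed, and the count was 0 with median centring and with only the arrays of these groups, 87 with the scanner software's ratios and with the deposited value table, 76 with scaling between arrays, 314 with Cy5 alone, 14 with no filter, 2872 with array weights, 312 with array brightness as a covariate and 3 to 359 when 1 array was left out. Against MuRF1 het MuRF2 null hearts, 3251 passed, with 870 under median centring, 1606 with the strict filter, 8160 with array weights and 2174 to 3791 when 1 array was left out. The test of genotype by slide gave 0 to 2364 when 1 array was left out. Except where stated, the cause was not tested.

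Replicate numbers did not pair the hearts, since same-numbered hearts of the double null and wild type groups correlated at 0.16, -0.21, 0.28 and -0.12. With the replicate block, 1626 genes passed against wild type, 0 against MuRF1 null MuRF2 het and 1574 against MuRF1 het MuRF2 null hearts.

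Of 119 named genes tested, 100 kept their direction under every alternative run. With median centring the sign turned for Trim54 (-0.69), Sqstm1 (-0.39), Hsp90aa1 (-0.12), Tfdp1 (-0.06), Rpl5 (-0.76), Psmd14 (-0.62), Cryab (-0.59), Hspb1 (-0.39), Asns (-0.04), Pdlim3 (-0.02), Smyd2 (-0.79), Tnnc1 (-0.84), Gpx3 (-0.03), Myl4 (-0.32), Myl7 (-0.15) and Lum (-0.57), and Nnmt stood at 0. Among genes that had not passed, Trim55 was at -0.76 with median centring and -0.14 with the brightness covariate. Cdkn1a was at -0.56 with median centring, -0.38 with the scanner software's ratios and with the deposited table, -0.03 with Cy5 alone and on slide 1, -0.17 with the brightness covariate and -0.05 to 0.20 when 1 array was left out, the lowest without wild type 3. Double null 2 had the fewest probes well above background, which limits what can be said of dim genes.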
